A study of Homo sapiens with 12 samples.

Results

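The genes described here are those of the insulin-like growth factor (IGF) binding proteins IGFBP1 to IGFBP7, the receptors IGF1R and IGF2R and the ligand IGF1, 10 of the 58174 genes in each deposited table. They were chosen by symbol, and all 10 symbols matched 1 Ensembl identifier each. The mRNA-seq covered U-87 MG (U87) and U-118 MG (U118), established human glioblastoma cell lines, with 3 libraries of sensitive and 3 of resistant cells from each line, 12 in all. By the study's methods the cells of both groups had been sorted as CD133-CD15- and kept in medium with serum and BMP2. The resistant cells are those that formed aggregations after treatment with temozolomide (TMZ), an alkylating drug, at 50 μM. The paper calls them aggregation cells and the sensitive cells control cells. The labels give no TMZ dose and do not say whether the libraries of a group came from separate cultures, so the p-values measure the spread between these libraries, which may be technical.

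IGF1 signals through IGF1R, a receptor tyrosine kinase that acts on PI3K, AKT and mTOR. IGF2R binds IGF2 and carries it to the lysosome without kinase signaling, and it also sorts lysosomal enzymes. The binding proteins are secreted and hold IGFs away from the receptor or deliver them to it, and proteases such as PAPPA release the ligand by cutting them. IGFBP7 binds IGFs weakly, and several IGFBPs are known components of the senescence-associated secretory phenotype. The study itself lists several IGFBP genes among the secretory genes it found changed in these libraries, so their change here is not independent evidence. That list gives no direction. The paper also reports IGFBP3 mRNA rising over days of TMZ treatment by RT-qPCR, and high IGFBP3 protein by mass spectrometry. Those are another time and another measure than the libraries used here.

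The values are TPM, transcript abundances scaled by gene length to a common total for each library, so they keep no read depth. A difference in TPM in a bulk library cannot tell fewer cells expressing a gene from less RNA per cell. Resistant and sensitive cells were compared within a line with limma on log2(TPM + 1), over genes that reached 1 TPM in 3 or more of the 6 libraries. Genes were called higher or lower where the p adjusted by Benjamini-Hochberg was under 0.05 and the log2 fold change reached 1 in either direction, and "rose" and "fell" are used for called genes. Over all genes tested the median change (log2) was -0.24 in U87 and -0.52 in U118, while after median-ratio scaling of the libraries it was -0.0027 and -0.08. The share of mitochondrially encoded genes in all TPM was 12.9% to 16.9% in U87 sensitive, 22.2% to 23.7% in U87 resistant, 7.42% to 19.7% in U118 sensitive and 13.2% to 29.9% in U118 resistant libraries.

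The libraries labelled U118 resistant went against their line label. Genes marking a line were those at 10 TPM or more in its 3 sensitive libraries and under 0.1 TPM in the 3 sensitive libraries of the other line, 44 for U87 and 110 for U118. In the libraries labelled U118 resistant, 38 to 40 of the 44 U87 marks and 16 to 23 of the 110 U118 marks were at 1 TPM or more, whereas the U87 resistant libraries held all 44 and 2 to 4. Across all genes their Spearman rho was 0.861 to 0.873 with the U87 libraries and 0.829 to 0.850 with the U118 sensitive libraries, as a description, since genes are not independent replicates. All U118 comparisons rest on these 3 libraries and none is possible without them, while the U87 comparisons do not use them. What the libraries labelled U118 resistant are was not tested. Of the astroglial and neural markers GFAP was at 0.693 TPM or less in all 12 libraries, while VIM was at 4425 to 7149 TPM and NES at 5.76 to 24.1 TPM. OLIG2 was at 1.45 to 4.45 TPM in U87 libraries and at 0.052 TPM or less in U118 sensitive libraries. In the libraries labelled U118 resistant OLIG2 was at 0.570 to 1.05 TPM. SOX2 was listed at 0 in U87 and was at 0.550 TPM or less in U118. S100B was at 0.281 TPM or less and AQP4 was listed at 0 in all libraries. Of 6 leukocyte markers only CD68, at 170 to 379 TPM, reached 1 TPM in all libraries, and PTPRC was at 0.069 TPM or less.

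Of the 10 members, 4 were called in both lines, namely IGFBP3, IGFBP4, IGFBP5 and IGFBP6. Sequence just before the transcription start is shown for IGFBP4 and IGFBP5, because they were called in opposite directions in U87 and U118 and their windows lie outside the gene as GENCODE release 29 draws it, which was not so for the windows of IGFBP3 and IGFBP6. Each window holds the 150 bases before the RefSeq start (GRCh38.p14), 5′ to 3′ on the strand of the gene. The IGFBP4 window is chr17:40443300-40443449 on the plus strand and the IGFBP5 window is chr2:216695550-216695699 on the minus strand. Capitals mark a GC box (GGGCGG) or a TATA box (TATAAA), each searched on both strands, and no 2 different motifs overlapped.
IGFBP4: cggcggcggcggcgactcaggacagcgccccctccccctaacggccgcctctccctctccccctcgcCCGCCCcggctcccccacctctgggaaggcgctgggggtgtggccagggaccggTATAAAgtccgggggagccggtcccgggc
IGFBP5: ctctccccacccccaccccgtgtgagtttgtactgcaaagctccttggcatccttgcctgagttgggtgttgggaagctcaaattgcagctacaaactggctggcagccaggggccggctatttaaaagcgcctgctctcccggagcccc
IGFBP4 has a TATA box that ends 23 bases before the start and a GC box 77 bases before it. The IGFBP5 window has neither of these exact words. Variant forms such as TATTTAAA, which the IGFBP5 window holds, were not searched, so lack of a TATA element cannot be read from this. The 250 bases before the start were searched for 8 of the 10 members, in 11 windows, and the RefSeq table has no entry for IGFBP1 and IGFBP7. The core of the hypoxia response element (ACGTG or GCGTG, both strands) was found 3 times before IGFBP3, 5 times before IGF1R and 6 times before IGF2R, 1 time in 1 of the 3 windows of IGFBP2, and not in the windows of IGF1, IGFBP4, IGFBP5 or IGFBP6. It is a common word, found 1 or more times in 43.2% of 35116 promoter windows of that length, against 42.6% for the GC box, 10.7% for the TATA box and 6.57% for the AP-1 site TGANTCA, which no member window held. These shares give no background for several matches in a window. The windows of IGFBP3, IGF1R and IGF2R were 76%, 81.2% and 79.2% G or C. A match describes letters and not a bound site.

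The members differed by several orders of magnitude in level. In U87 sensitive cells the order by mean TPM was IGFBP6 (229), IGF2R (89.3), IGFBP7 (66.9), IGFBP4 (41.9), IGFBP3 (23.7), IGF1R (7.75) and IGFBP5 (0.319), with no overlap between neighbours, and IGFBP1, IGFBP2 and IGF1 were listed at 0 in all 6 U87 libraries. In U87 resistant cells IGFBP6 (488), IGFBP7 (164), IGF2R (106.3) and IGFBP4 (105.7) led, where IGF2R and IGFBP4 overlapped. The order in U118 sensitive cells was another one, with IGFBP3 (379) first, then IGFBP4 (201), IGFBP7 (148) and IGFBP6 (116), where IGFBP4 overlapped with IGFBP7 and IGFBP7 with IGFBP6. The libraries labelled U118 resistant were led by IGFBP6 (298), followed by IGFBP7 (97.5), IGF2R (66.4), IGFBP3 (46.4) and IGFBP1 (27.6), whose neighbouring ranges overlapped from IGFBP7 down to IGFBP1. The lines come from separately made tables, so levels are set side by side and were not tested between lines.

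The binding protein genes were higher in resistant than in sensitive U87 cells. Of the 7 members tested in U87, 5 were called higher and 0 lower, where 3.03% of the 13845 genes tested were called higher and 7.79% lower. Among the 5, IGFBP5 passed the filter through the resistant libraries alone, so its inclusion is tied to its direction. Under the filter on a mean of 10 TPM, 4 of 5 members tested were called higher. With limma's adjusted p under 0.05 and no fold change threshold 1 member was lower, IGF1R, which is described with the receptors. The median log2 fold change of the 7 was 1.09, beside -0.24 over all genes.

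IGFBP6, which binds IGF2 in preference to IGF1, was the most abundant. It was at 248, 232 and 206 TPM in U87 sensitive and 461, 520 and 484 TPM in U87 resistant libraries. The groups did not overlap, and IGFBP6 rose by 1.09 on the log2 scale (standard error, SE, 0.09, 95% confidence interval 0.89 to 1.30, limma adjusted p = 0.000209).

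IGFBP7, a matrix-associated protein of low IGF affinity, was at 62.8, 74.4 and 63.6 TPM in sensitive and 162, 171 and 158 TPM in resistant libraries. Every resistant library was above every sensitive one, and the log2 fold change was 1.28 (SE 0.09, interval 1.07 to 1.49, limma adjusted p = 0.000134). IGFBP4, a binding protein that PAPPA cleaves, was at 44.8, 40.1 and 40.7 TPM in sensitive and 104, 112 and 101.02 TPM in resistant libraries. It rose by 1.31 (SE 0.08, interval 1.12 to 1.51, limma adjusted p = 0.000108), again without overlap.

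IGFBP3, the main carrier of IGFs in serum, was at 25.9, 26.8 and 18.4 TPM in sensitive and 43.5, 48.8 and 53.5 TPM in resistant libraries. Its groups did not overlap, but its log2 fold change of 1.02 (SE 0.16, interval 0.64 to 1.41, limma adjusted p = 0.00318) lay just past the threshold. It was 0.86 without U87 sensitive replicate 3 (adjusted p = 0.00637) and 0.95 without U87 resistant replicate 3 (adjusted p = 0.0162), under the threshold in both cases.

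IGFBP5, a binding protein that also attaches to the extracellular matrix, had the largest change of the 7 and the lowest level in sensitive cells. It was at 0.248, 0.327 and 0.383 TPM in sensitive and 7.10, 6.17 and 7.25 TPM in resistant libraries, 21.4 times higher as a ratio of means. After log2(TPM + 1), which compresses changes of low genes, it rose by 2.57 (SE 0.14, interval 2.25 to 2.89, limma adjusted p = 7.14e-05), and with a pseudocount of 0.1 by 4.06. The other 4 members that rose had log2 fold changes between 1.02 and 1.31.

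The abundant IGFBP genes rose by similar factors in U87, so the sum of IGFBP transcripts changed more than their makeup. The summed level of the 7 IGFBP genes was 361 ± 28.0 TPM in sensitive and 813 ± 41.3 TPM in resistant U87 libraries (SD, n = 3 each). IGFBP6 held 62.1% to 64.9% of the sum in sensitive and 59.3% to 60.6% in resistant libraries, and IGFBP5 went from at most 0.116% to 0.719% or more. Both of these shares differed without overlap between the groups. With 3 libraries in each group the smallest two-sided p of an exact permutation test is 0.1, and none was run on the shares.

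In U118 single binding protein genes were called in both directions. Of the 8 members tested, IGFBP3, IGFBP4 and IGFBP5 were called lower and IGFBP6 higher in the libraries labelled resistant, 3 and 1, where 26.6% of the 15527 genes tested were called lower and 8.64% higher. With 8 members tested these counts lie near those shares, so they are not read as a trait of the family. Under median-ratio scaling the same 3 were called lower, beside 13.9% of all genes. The log2 fold change of IGFBP4 lay at percentile 0.0902 of all genes tested, that of IGFBP3 at percentile 1.84 and that of IGFBP5, which is compressed by the pseudocount of 1, at percentile 9.08.

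IGFBP4 was at 224, 217 and 161 TPM in U118 sensitive libraries and at 1.15, 0.446 and 0.409 TPM in the libraries labelled U118 resistant. The mean was 301 times lower in the latter, and the log2 fold change was -6.93 (SE 0.26, interval -7.52 to -6.34, limma adjusted p = 3.12e-07). IGFBP4 was called in the same direction under every alternative run, between -6.59 under median-ratio scaling and -8.14 with a pseudocount of 0.1.

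IGFBP3 was at 313, 411 and 413 TPM in U118 sensitive libraries, the highest group mean of any member except that of IGFBP6 in U87 resistant cells. In the libraries labelled U118 resistant it was at 75.6, 31.7 and 32.0 TPM, with replicate 1 above the others. It fell by 3.11 on the log2 scale (SE 0.34, interval -3.88 to -2.35, limma adjusted p = 9.89e-05), 8.16 times lower by the means. IGFBP5 was low throughout, at 2.12, 2.32 and 2.53 TPM in sensitive libraries and 0.060, 0.044 and 0.031 TPM in those labelled resistant, and fell by 1.67 (SE 0.16, limma adjusted p = 4.38e-05). At these low levels the pseudocount sets the size, and with a pseudocount of 0.1 the value was -4.06. In U118 IGFBP5 passed the filter of 1 TPM through the sensitive libraries alone, so its inclusion is tied to its direction there too. IGFBP5 did not reach the filter of a mean of 10 TPM in either line. Under that filter 2 of 6 members tested in U118 were called lower.

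IGFBP6 was the member that rose in U118 as it did in U87. It was at 136, 132 and 78.8 TPM in sensitive libraries and at 350.3, 273 and 269 TPM in those labelled resistant, without overlap although sensitive replicate 3 lay below the others. Its log2 fold change was 1.39 (SE 0.26, interval 0.80 to 1.98, limma adjusted p = 0.00231), and it was called under every alternative run.

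IGFBP1 and IGFBP7 depended on 1 library. IGFBP1, a binding protein known from liver and decidua and regulated by insulin, was at 38.2, 30.8 and 26.4 TPM in U118 sensitive libraries. In the libraries labelled U118 resistant it was at 62.3 TPM in replicate 1 and at 11.7 and 8.82 TPM in the other two, so that replicate 1 lay above all sensitive libraries and the others below. Its log2 fold change was -0.70 (SE 0.60, interval -2.06 to 0.65, limma adjusted p = 0.346), and without U118 resistant replicate 1 it was -1.54 (adjusted p = 0.000678). IGFBP7 was at 159, 172 and 113 TPM in sensitive libraries and at 149, 64.4 and 78.8 TPM in those labelled resistant, a log2 fold change of -0.67 (SE 0.33, interval -1.41 to 0.06, limma adjusted p = 0.111). Without the same library it was -1.03 (adjusted p = 0.00501). Without that library 5 members in place of 3 were called lower in U118, while the share of all genes called lower went from 26.6% to 36.3% and the median of all genes from -0.52 to -0.70. U118 resistant replicate 1 had 13.2% of its TPM in mitochondrially encoded genes, against 29.9% and 26.1% in replicates 2 and 3, and the part of this in the 2 genes was not tested.

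IGFBP2 was listed with 0 TPM in every U87 library and was at 0.063 TPM or less in U118, below the filter in both lines. IGFBP2 is known from studies of glioma tissue, and its transcripts were at or near 0 in all 4 groups here.

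In U118 the makeup of the IGFBP transcripts differed as well as their sum. The summed level was 878 ± 84.7 TPM in sensitive and 469.9 ± 146 TPM in the libraries labelled resistant (SD, n = 3 each). In sensitive libraries IGFBP3 held 35.8% to 51.9% of the sum, IGFBP4 20.3% to 25.6% and IGFBP6 9.91% to 15.6%. In the libraries labelled resistant IGFBP6 held 54.9% to 71.6%, IGFBP3 8.21% to 11.8% and IGFBP4 0.105% to 0.179%. None of these 3 shares overlapped between the groups, and IGFBP7, at 14.2% to 18.3% and 16.9% to 23.4%, overlapped.

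Whether a change differed between the lines was tested as an interaction over all 12 libraries, in which a negative value means a lower change in U118 than in U87. Of 8 members tested, IGFBP3, IGFBP4, IGFBP5 and IGFBP7 differed, all 4 in the negative direction, where 18.5% of 16382 genes were called negative and 12% positive. Among these, IGFBP5 passed the filter through the U87 resistant and U118 sensitive libraries alone, so its inclusion is tied to its negative direction. The difference was -8.25 for IGFBP4 (SE 0.27, limma adjusted p = 6.55e-10), -4.24 for IGFBP5 (SE 0.19, adjusted p = 5.26e-09, or -8.12 with a pseudocount of 0.1), -4.13 for IGFBP3 (SE 0.41, adjusted p = 5.79e-06) and -1.95 for IGFBP7 (SE 0.37, adjusted p = 0.00114). IGFBP3, IGFBP4 and IGFBP5 thus rose in U87 and fell in U118, and IGFBP7 rose in U87 without a call in U118. For IGFBP6 the difference was 0.29, with an interval from -0.32 to 0.91 (limma adjusted p = 0.439). IGFBP1 was listed at 0 in all U87 libraries, so no difference in change can be read for it. This test too rests on the libraries labelled U118 resistant.

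The levels in those 3 libraries did not follow 1 line throughout. Those of IGF1R, IGFBP6 and IGFBP7 lay inside the range of the 6 U87 libraries in 3 of 3 libraries and that of IGFBP3 in 2 of 3. IGFBP1, at 8.82 to 62.3 TPM, was above the U87 libraries, all listed at 0. IGFBP4 at 1.15 TPM or less was below both the U87 libraries (40.1 to 112 TPM) and the U118 sensitive libraries (161 to 224 TPM). IGFBP5 was likewise below both, with at most 0.060 TPM against at least 0.248 TPM in U87 and 2.12 TPM in U118 sensitive libraries. IGF2R, at 57.2 to 82.9 TPM, lay between U118 sensitive cells (44.2 to 54.3 TPM) and U87 cells (85.8 to 124 TPM).

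Neither receptor gene was called in either line. IGF1R was at 7.90, 6.17 and 9.18 TPM in U87 sensitive and 4.001, 3.64 and 4.64 TPM in U87 resistant libraries, without overlap. Its log2 fold change of -0.77 (SE 0.18, interval -1.20 to -0.34, limma adjusted p = 0.0144) was past the p threshold and under the fold change threshold, and after median-ratio scaling it was -0.54 (adjusted p = 0.0672). In U118 IGF1R was at 5.58, 5.22 and 5.92 TPM in sensitive libraries and 4.73, 3.96 and 3.91 TPM in those labelled resistant. The groups again did not overlap, but the change of -0.34 was not called (SE 0.22, limma adjusted p = 0.210) and was 0.09 under median-ratio scaling.

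IGF2R was at 89.5, 85.8 and 92.5 TPM in U87 sensitive and 124, 86.0 and 109 TPM in U87 resistant libraries, which overlapped. Its change there was 0.23 (SE 0.13, limma adjusted p = 0.208), or 0.51 after median-ratio scaling (adjusted p = 0.0270). In U118 it was at 44.2, 54.3 and 45.9 TPM in sensitive and 82.9, 57.2 and 59.0 TPM in the libraries labelled resistant, without overlap. The change was 0.44 (SE 0.22, limma adjusted p = 0.127), or 0.95 after median-ratio scaling (adjusted p = 0.00183), still under the fold change threshold. The difference between the lines was 0.43 for IGF1R (interval -0.14 to 1.00, limma adjusted p = 0.216) and 0.21 for IGF2R (interval -0.34 to 0.76, adjusted p = 0.550).

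The ligand IGF1 was listed at 0 in all U87 and U118 sensitive libraries and reached 0.085 TPM in 1 library labelled U118 resistant. IGF2 was at 0.214 TPM or less in all 12 libraries, and INS, which encodes insulin, was listed at 0 in all of them. The binding protein genes were therefore measured in cells whose transcripts for the ligands were at or near 0.

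Of the 7 IGFBP genes, 4 lie as tail-to-tail pairs. IGFBP1 on the plus strand and IGFBP3 on the minus strand lie on chromosome 7 from 45888357 to 45921874, 18576 bases apart. IGFBP2 on the plus strand and IGFBP5 on the minus strand lie on chromosome 2 from 216632828 to 216695525, 7668 bases apart (GRCh38, GENCODE release 29). The members of a pair did not share a level: U87 cells held IGFBP3 at 18.4 TPM or more with IGFBP1 listed at 0, and U118 sensitive cells held IGFBP5 at 2.12 TPM or more with IGFBP2 at 0.063 TPM or less. The nearest protein-coding neighbours beyond the pairs were AC096582.3 and TNS3, 15275 and 1353280 bases away, and RPL37A and TNP1, 53648 and 163933 bases away. AC096582.3 and TNP1 were below the filter in both lines. RPL37A was not called in either line, with log2 fold changes of 0.57 in U87 and 0.15 in U118. TNS3, which encodes a focal adhesion protein, was not called in U87 and fell by 1.16 in U118 (SE 0.22, limma adjusted p = 0.00233). Under median-ratio scaling TNS3 was at -0.67 and not called.

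Of 52 other genes of the IGF pathway, 37 passed the filter in U87, with calls of 5 higher and 2 lower, beside 3.03% and 7.79% of all genes. In U118 38 were tested, with 3 called higher and 13 lower, beside 8.64% and 26.6%. Their median log2 fold change was -0.12 in U87 and -0.66 in U118, beside -0.24 and -0.52 over all genes. The lower calls in U118 depended on the scaling, with 4 higher and 3 lower under median-ratio scaling, beside 14.2% and 13.9% of all genes. Without U118 resistant replicate 1 they were 3 higher and 15 lower, beside 8.33% and 36.3%.

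The proteases that cut IGFBPs and the inhibitors of these proteases had 7 of 8 genes tested in each line. In U87, PAPPA and PAPPA2, metalloproteases that cut IGFBPs, were called higher and none lower. PAPPA was at 4.82, 6.29 and 4.58 TPM in U87 sensitive and 22.3, 17.2 and 19.6 TPM in U87 resistant libraries, a log2 fold change of 1.73 (SE 0.17, limma adjusted p = 0.000404). PAPPA2 rose by 1.00, just past the threshold, and was at 0.95 without U87 sensitive replicate 1 and without U87 resistant replicate 1, and at 0.96 without U87 resistant replicate 3. HTRA1, a secreted serine protease with an IGFBP-like domain, was at 403 to 439 TPM in sensitive and 799 to 840.02 TPM in resistant U87 libraries, a change of 0.96 (limma adjusted p = 9.74e-05) that stayed below the fold threshold, and 1.24 under median-ratio scaling. PAPPA and its substrate IGFBP4 thus both rose in U87.

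In U118 ADAM28 was called higher and ADAM9, HTRA1 and STC2 lower. HTRA1 was at 311, 292 and 231 TPM in U118 sensitive libraries and at 153, 36.5 and 34.5 TPM in those labelled resistant, with replicate 1 above the others as it was for IGFBP1. It fell by 2.23 (SE 0.50, limma adjusted p = 0.00584), a call that was lost with no filter on low values (adjusted p = 0.130). ADAM28, a membrane metalloprotease, rose from at most 0.040 TPM to between 2.28 and 4.15 TPM, a log2 change of 1.95 (limma adjusted p = 8.17e-05). It passed the filter through the libraries labelled resistant alone. ADAM9 changed by -1.40 and STC2, a secreted inhibitor of PAPPA, by -1.11, and neither was called under median-ratio scaling, at -0.88 and -0.60. PAPPA was at 4.27 to 4.94 TPM in sensitive libraries and 8.11 to 12.6 TPM in those labelled resistant, with a change of 0.92 (limma adjusted p = 0.0138) and of 1.37 under median-ratio scaling.

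Among adaptors and substrates 5 of 7 genes were tested in each line. IRS1, the docking protein of the IGF1 and insulin receptors, rose in U87 from 7.05, 8.73 and 7.73 TPM to 19.1, 17.3 and 16.5 TPM, a log2 change of 1.08 (SE 0.13, limma adjusted p = 0.00111). GRB10, an adaptor that dampens signaling of these receptors, rose in U118 by 1.16 (limma adjusted p = 0.00212), from between 34.4 and 37.4 TPM to between 72.7 and 103 TPM. INSR, the insulin receptor, was not called in either line, at 0.61 in U87 (limma adjusted p = 0.0236) and 0.06 in U118.

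All 15 genes of the list of PI3K, AKT and mTOR were tested in both lines. In U87 only PIK3R3, a regulatory subunit of PI3K, was called, at 2.27 to 2.87 TPM in sensitive and 7.88 to 8.34 TPM in resistant libraries, with a log2 fold change of 1.36 (SE 0.14, limma adjusted p = 0.000531). In U118 PIK3CD rose by 2.15 (limma adjusted p = 0.000114), and PDPK1, the kinase that activates AKT, fell by 2.56 (limma adjusted p = 3.00e-05). These 2 calls held under median-ratio scaling. The other U118 calls of the list were PIK3CA (-1.28), PIK3CB (-1.17), PIK3R3 (-1.14) and TSC2 (-1.20), none of which was called under that scaling, at -0.85, -0.67, -0.75 and -0.69. AKT1 was not called in either line, with changes of -0.75 in U87 and 0.03 in U118, nor was MTOR, with 0.01 and -0.20. Of the FOXO factors, which AKT holds in the cytoplasm, 2 of 4 were tested, and FOXO3 fell by 1.06 in U118 (limma adjusted p = 0.00967) but was at -0.59 and not called under median-ratio scaling.

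Other proteins with an IGFBP-like domain had 5 of 11 genes tested in U87 and 6 in U118. CCN5 rose in U87 from between 1.44 and 1.72 TPM to between 7.15 and 7.98 TPM, by 1.73 (SE 0.14, limma adjusted p = 0.000198), and CCN1, a matricellular protein, fell by 1.05 (limma adjusted p = 0.000274) but was at -0.77 and not called under median-ratio scaling. In U118 ESM1, a secreted proteoglycan, fell from between 5.73 and 7.08 TPM to between 0.101 and 0.312 TPM, by 2.62 (limma adjusted p = 9.28e-06). ESM1 passed the filter through the sensitive libraries alone. CCN2 and KAZALD1 changed by -1.44 and -1.23 in U118 and by -0.94 and -0.73, not called, under median-ratio scaling. Of the IGF2 mRNA-binding proteins, 2 of 3 were tested, with IGF2BP2 lower in U87 (-1.31, limma adjusted p = 0.000532) and IGF2BP3 lower in U118 (-1.23, limma adjusted p = 0.00246; -0.73 and not called under median-ratio scaling). IGFALS, which forms the ternary complex of IGF and IGFBP3 in serum, was at 0.178 TPM or less in all libraries.

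Of 9 fibroblast markers, 5 were tested in U87, with 4 called higher and COL1A2 not called, beside 3.03% of all genes called higher. In U118 8 were tested, with 7 called lower and PDGFRB not called, beside 26.6% of all genes called lower. PDGFRA, one of the 7, passed the U118 filter through the sensitive libraries alone, so its inclusion is tied to its direction. Under median-ratio scaling COL1A1 in U118 was at -0.93 and not called, and COL1A2 in U87 was at 1.21 and called higher. In U118 the largest limma adjusted p under any alternative was 0.0761 for COL1A1, 0.0929 for COL1A2, 0.0638 for THY1 and 0.0636 for FAP. For FAP in U87 it was 0.0502. These calls could thus be lost on p. IGFBP3, IGFBP4 and IGFBP5 were called in the same direction as the called fibroblast markers in each line. IGFBP6 was called higher in both lines, in U118 against the direction of these markers. IGFBP7 was called higher in U87 and was not called in U118. THY1, below the filter in U87, was at 0.059 to 0.127 TPM in sensitive and at most 0.046 TPM in resistant libraries. The summed TPM of 9 fibroblast markers was 240.4 to 243 in U87 sensitive and 455 to 540.4 in U87 resistant libraries, and 1323 to 1710.1 in U118 sensitive and 301 to 674 in the libraries labelled U118 resistant. At 1 TPM or more in all 3 libraries were 4 of the 9 in U87 sensitive, 5 in U87 resistant, 8 in U118 sensitive and 6 in the libraries labelled U118 resistant. The part of fibroblast genes in the IGFBP results was not tested. SERPINA1 was the one of 4 hepatocyte markers at 1 TPM or more, in the U87 libraries and in those labelled U118 resistant, and the summed TPM of the 4 was 0.303 or less in U118 sensitive libraries, where IGFBP1 was expressed. The summed TPM of 4 endothelial markers was 1.38 or less in all libraries. Of the epithelial markers KRT8 rose in U118 by 2.43 (limma adjusted p = 0.000195) and was not called in U87, at 0.53. KRT18 was at 0.98 in U118 and not called, but was at 1.23 and called higher under median-ratio scaling (limma adjusted p = 0.000224). It passed the U118 filter through the libraries labelled resistant alone.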

How the data were processed

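The authors extracted RNA with Trizol, made mRNA libraries with the VAHTS mRNA-seq V2 kit and deposited TPM per gene, 1 table for each line. The submitters' processing notes name FastQC 0.11.2, Trimmomatic 0.36, HISAT2 2.0, bedtools 2.26.0 and GRCh38. The annotation and counting tool were not given in the sources used here. TPM keeps no read counts, so depth is unknown and errors are spreads between 3 libraries.

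Groups and replicate numbers came from the sample labels. TPM were fitted as log2(TPM + 1) with limma 3.58.1 in R 4.3.3 (eBayes with trend) in each line, and over 12 libraries with the interaction of line and condition (genes at 1 TPM in at least 3 libraries). P-values were adjusted over all genes tested (Benjamini-Hochberg). Fits were tested on simulated data. The members and pathway lists were chosen with earlier results of these data known. All members, the pathway genes called in either line with a few that were not, and the nearest protein-coding neighbours are named, and 1 pathway gene is not reported here. Positions are from GENCODE release 29 and promoters from RefSeq (GRCh38.p14). Alternatives were pseudocount 0.1, no filter, a filter on a mean of 10 TPM, scaling by median ratios, TPM recomputed without mitochondrially encoded genes, a replicate block, eBayes fitted with no trend, no fold change threshold, and each library left out. Counts and calls for the pathway lists under these settings were added after the data were seen. Tables and figures were made in Python 3.11.15 with pandas 2.3.3 and matplotlib 3.10.9.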

Additional observations from a re-analysis of the deposited data

Results flagged for a closer look

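A test of the difference itself, the interaction of line and condition, called 29 of the genes examined here, 4 members, 13 pathway genes, 1 neighbour and 11 markers of other cell types. Values are the log2 fold change in U118 minus that in U87, and all of them rest on the libraries labelled U118 resistant. Among the members these were IGFBP4 (-8.25), IGFBP5 (-4.24), IGFBP3 (-4.13) and IGFBP7 (-1.95). Among the proteases and their inhibitors these were HTRA1 (-3.19), ADAM28 (2.55), ADAM9 (-1.41) and STC2 (-1.19). In the signaling lists these were PDPK1 (-2.60), PIK3R3 (-2.50), PIK3CD (2.33), IRS1 (-1.46) and FOXO4 (1.33). Of the other lists these were CCN5 (-2.06), IGF2BP2 (1.69), CCN4 (-1.33) and IGF2BP3 (-1.13). CCN5 was below the filter in U118, and ADAM28 and CCN4 were below it in U87. IGFBP5 reached 1 TPM only in U87 resistant and U118 sensitive libraries. CCN4 and the marker PDGFRA reached it only in U118 sensitive libraries. The inclusion of these genes is thus tied to their negative direction. ESM1, listed at 0 in all U87 libraries, is left out, since its value repeats its change in U118. The neighbour was TNS3 (-1.16). The markers were PDGFRA (-6.44), DCN (-5.85), LUM (-4.70), FAP (-3.59), COL1A1 (-2.69), COL1A2 (-2.67), PDGFRB (-2.11) and THY1 (-1.80) of the fibroblast list, and SERPINA1 (3.57), KRT8 (1.90) and CD68 (1.08), of which PDGFRA, DCN and THY1 were below the filter in U87. STC2, IGF2BP3 and TNS3 were at -0.99, -0.92 and -0.97 and not called under median-ratio scaling, TNS3 and CD68 came as near 0 as -0.98 and 0.86 when libraries were left out in turn, and IGF2BP3 was at -0.92 without U118 resistant replicate 1. The largest limma adjusted p under any alternative was 0.0854 for THY1 and 0.0507 for CD68, so both calls could be lost on p.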

How the results depend on the processing

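Of 76 counts of members under an alternative, 74 were within 1.5 times the value reported. Without a fold change threshold 1 member, IGF1R, was called lower in U87 in place of 0. Leaving out each library in turn gave 3 to 5 members called lower in U118, the 5 without U118 resistant replicate 1, which added IGFBP1 and IGFBP7. Of 341 values of single members, 335 kept their direction and their side of the thresholds, 2 lost a call (IGFBP3 in U87) and 3 gained one (IGFBP1, in U118 and in the difference between the lines, and IGFBP7, each without U118 resistant replicate 1). The change of IGF1R in U118 turned from -0.34 to 0.089 under median-ratio scaling. Of 551 values of pathway genes that were called, 515 kept the call, 36 lost it and none changed sign. With no filter the U118 calls of HTRA1, PIK3CB, PIK3R3, FOXO3, STC2 and KAZALD1 were lost. PIK3R3 in U118 was not called without any 1 library other than U118 resistant replicate 1, FOXO3 without U118 resistant replicate 2 or 3, STC2 without U118 resistant replicate 2, CCN1 in U87 without U87 resistant replicate 2 and PAPPA2 in U87 without U87 sensitive replicate 1 or U87 resistant replicate 1 or 3.

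Same-numbered sensitive and resistant libraries did not deviate together in U87 (Pearson r -0.07 to 0.01). In U118 r was 0.05 to 0.14 and every library correlated best with its own number, as a weak hint of pairing from the data. The labels give only the number. With the replicate block 5 members were called higher and 0 lower in U87, 1 and 3 in U118, and 4 differed between the lines, as without it.

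With a mean of at least 10 TPM IGFBP5 was not tested. TPM holds no read counts, so values near 0, as of IGFBP2, IGF1 or IGFBP5 in the libraries labelled U118 resistant, cannot be told from absence.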
